A study of Homo sapiens with 4 samples.

Results

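The MARK, BRSK, NUAK and SNRK kinases are the members of the AMPK-related kinase family that LKB1 activates, apart from AMPK itself and the SIK kinases. They were taken by symbol (MARK1 to MARK4, BRSK1, BRSK2, NUAK1, NUAK2 and SNRK), and all 9 were found among the 34675 genes of the authors' deposited table. The cells were MDA-MB-231, an established triple-negative breast carcinoma line from a pleural effusion, carrying stably either the pcDNA-Vector plasmid or pcDNA-FLAG-LKB1 wildtype, which encodes tagged wild-type LKB1 (gene STK11). Both were grown on plastic in DMEM with 10% serum to about 70% confluence. Total RNA was sequenced in 4 libraries, 2 from each line. The labels do not say whether a line was a pool or 1 clone, nor whether its libraries came from separate cultures, so a p-value here speaks for these 4 libraries, and their spread may be technical only.

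LKB1 is a master kinase that works in a complex with a STRAD pseudokinase and the scaffold MO25 (CAB39). It phosphorylates a threonine in the activation loop of each AMPK-related kinase, and that phosphorylation switches the kinase on. The MARK kinases (microtubule affinity-regulating kinases, the PAR-1 family) loosen tau-type proteins from microtubules and set cell polarity. The BRSK kinases (SAD kinases) are best known in neurons, where they act in axon specification and at presynaptic terminals. The NUAK kinases act on myosin phosphatase and cell adhesion, and SNRK is known from the heart, endothelium and fat. This regulation acts on the proteins, whereas the values here are RNA, so activity of the kinases was not measured.

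The shared feature of the family can be read in the coding sequence. The bases below encode 14 residues of each activation loop, read from GENCODE 29 transcripts (GRCh38) and written 5′ to 3′ on the coding strand, with the codon of the LKB1-phosphorylated threonine in capitals. They are shown because this site is what makes the 9 kinases LKB1 substrates.
MARK1: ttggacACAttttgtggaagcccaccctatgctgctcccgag
MARK2: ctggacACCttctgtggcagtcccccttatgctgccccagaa
MARK3: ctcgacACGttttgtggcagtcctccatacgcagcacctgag
MARK4: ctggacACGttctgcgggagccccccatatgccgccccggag
BRSK1: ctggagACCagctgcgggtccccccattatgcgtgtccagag
BRSK2: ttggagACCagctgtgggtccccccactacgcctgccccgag
NUAK1: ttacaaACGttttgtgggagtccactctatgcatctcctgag
NUAK2: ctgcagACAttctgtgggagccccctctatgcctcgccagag
SNRK: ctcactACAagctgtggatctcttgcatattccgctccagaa
Of the 14 encoded residues, 8 were the same in all 9 genes, and these were the 8 that the search required. Of the 42 bases, 15 were the same in all 9. BRSK1 and BRSK2 shared 35 of the 42 bases and all 14 residues, and NUAK1 and NUAK2 shared 32 bases and all 14 residues. SNRK was the most distant by residues, sharing 8 or 9 of the 14 with each other gene, and its lowest match was the 20 bases in common with NUAK1. In GRCh38 the stretch of BRSK1 lies at chr19:55294117-55294238 on the plus strand and is split over exons 7 and 8 of the transcript used. That of BRSK2 is likewise split, over exons 5 and 6, whereas in the other 7 genes it lies within 1 exon.

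Which line is the numerator of the deposited fold is not stated in its header. The LKB1 line was taken as the numerator, since STK11 had a fold above 1 (1.54, log2 0.62, adjusted p = 0.00105 in the authors' deposited table, whose analysis notes name edgeR), so every direction below rests on that reading. STK11 had 1321 vector and 2112 LKB1 reads, and with a variation (coefficient of variation) of 0.2 assumed between libraries it did not pass (adjusted p = 0.551). In simulated data with that variation, this test called 4% of genes changed 1.5-fold, so few folds of that size passed there. The simulation changed fewer genes than the 868 called in these data at 0.2. Its adjusted cut-off was therefore stricter, and its share may be too low for these data. No value per library was given; read totals per line were recovered from the fold, with 1.04 times as much depth in the LKB1 line. All 7 genes of a list for mesenchymal breast carcinoma cells (VIM, CD44, AXL, CAV1, KRT18, KRT8 and EGFR) were too abundant for a total up to 3000 reads per line to be found, and 2 of the 7 rose (CAV1 by 0.64 and AXL by 0.42 on the log2 scale). The hormone receptor genes ESR1 and PGR had 0 to 12 reads. However, when libraries were checked for mix-ups, 1 of the 2 groups did not match MDA-MB-231. A run tag in the titles is shared by both vector libraries and 1 LKB1 library, while the other LKB1 library carries another tag, and no value allowed the run to be tested. Endothelial markers also differed, with 7 of 8 measured markers lower in the LKB1 line (median log2 fold -3.04). These facts touch every difference below.

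Among the 9 kinase genes, 1 changed. BRSK1, a kinase of neuronal polarity and presynaptic terminals, fell 3.36-fold in the LKB1 line, and no kinase gene rose. By the same test in the authors' deposited table, an adjusted p under 0.05, a share of 5.79% of all genes, and 13.2% of protein-coding genes with at least 40 reads, passed. So 1 call among 9 genes is near the background. For decreases alone the background was 3.24% of all genes and 7.3% of those protein-coding genes, and for increases 2.55% and 5.9%. With an assumed variation between libraries in place of the deposited one, 1 of the 9 was called at 0.1 and at 0.2 and none at 0.4, beside 6.92%, 2.5% and 0.767% of all genes. The median log2 fold of the 9 was 0.08, and of the 8 with at least 40 reads 0.02, beside -0.02 over 12485 protein-coding genes with as many reads. The median size of the log2 fold, without sign, was 0.23 in the 8 and 0.23 in those protein-coding genes. An unadjusted p under 0.05 was reached by 3 of the 9, namely BRSK1, NUAK1 and MARK1. The share of all genes at that unadjusted cut-off was not worked out, so no excess can be read from this count.

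**Figure D1:**
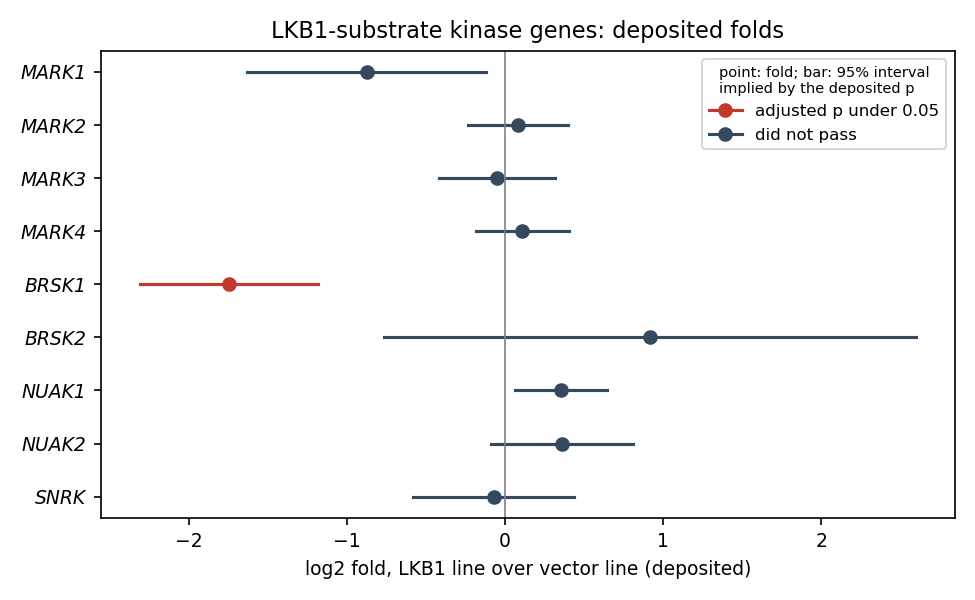
Log2 fold of each kinase gene (LKB1 line over vector line, x axis) as deposited by the authors, with bars for the 95% interval that the deposited p implies. BRSK1 at -1.75 is the 1 gene that passed the test; the intervals of MARK2, MARK3 and MARK4 lie between -0.42 and 0.40, and that of BRSK2 reaches from -0.77 to 2.6.

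BRSK1 (ENSG00000160469.11, hg19 chr19:55793440-55823901, plus strand) had 162 reads over the 2 vector libraries and 50 over the 2 LKB1 libraries. Its ratio of totals per depth was 0.297, with an exact (Clopper-Pearson) 95% interval of 0.212 to 0.410 that covers counting error only. In the authors' deposited table the log2 fold was -1.75 and the adjusted p 1.10e-07. The deposited p implies a standard error of 0.287 on the log2 scale, and with it a 95% interval of -2.31 to -1.18. The variation between libraries implied by that p was 0.124, beside a median of 0.135 over 1826 protein-coding genes with 106 to 424 reads and a deposited p between 1e-30 and 0.5, and inside their range from the 5th to the 95th percentile (0.102 to 0.175). With a variation of 0.2 assumed for every gene in an exact test the adjusted p was 0.000258, and 3.42% of protein-coding genes with at least 40 reads were then called lower. At an assumed variation of 0.4 the call was lost (adjusted p = 0.439).

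The fold of BRSK1 lay at percentile 2.3 of those 12485 protein-coding genes. Of all 2754 protein-coding genes with 0.5 to 2 times its reads, whatever their p, 403 passed the test, and the median log2 fold of the 2754 was -0.10. Since BRSK1 is mainly a neuronal gene, neuronal and neuroendocrine markers were set beside it. Of 14 such markers 4 had at least 40 reads, and 2 of these fell, UCHL1 from 316 to 8 reads and TUBB3 from 1091 to 800. ENO2 (913 to 844 reads) and CHGA (71 to 87) did not pass. With a variation of 0.2 assumed, UCHL1 still passed and TUBB3 did not (adjusted p = 0.908). Neurofilament genes NEFL and NEFM had no read in either line, and the synaptic genes SYP, SYN1 and SNAP25 had 3 to 13 reads in vector cells and 4 to 19 in LKB1 cells. Summed over the list there were 2434 reads in vector cells and 1783 in LKB1 cells. Such sums are not scaled for depth. The endothelial list had 2296 and 626 reads, with none of its 8 measured markers at 0. Of luminal breast markers 2 of 6 fell (SPDEF and AGR2), of fibroblast markers 3 of 5 fell, and of 3 leukocyte markers 1 rose and 1 fell. The part of these markers in the fall of BRSK1 was not tested, and in bulk RNA fewer cells of a type and less RNA per cell cannot be told apart.

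BRSK2, the paralog of BRSK1 and in these cells a barely detected gene, had 6 reads in vector cells and 12 in LKB1 cells. It lies at chr11:1411129-1483919 in hg19. The deposited log2 fold was 0.92 (adjusted p = 1 in the authors' deposited table), and the exact interval of the ratio of totals ran from 0.668 to 6.25. By a normal approximation, rough at so few reads, a rise of about 5.89-fold would have been needed to pass. A smaller rise was therefore unlikely to be called. The limit for a fall from 6 reads was not worked out. BRSK1 made up 96.4% of the BRSK reads in the vector line (exact 95% interval 92.4 to 98.7) and 80.6% in the LKB1 line (68.6 to 89.6). Reads of both BRSK genes together fell from 168 to 62, a sum that follows BRSK1.

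The 4 MARK genes, whose products phosphorylate microtubule-associated proteins, did not pass the test in either direction. MARK2 (hg19 chr11:63606400-63678491) had 1038 reads in vector cells and 1143 in LKB1 cells. Its deposited log2 fold was 0.08, with an implied 95% interval of -0.23 to 0.40. MARK3 (chr14:103851729-103970168), known for binding 14-3-3 proteins and phosphorylating CDC25C, had 1038 and 1041 reads and a log2 fold of -0.05 (-0.42 to 0.32). MARK4 (chr19:45582546-45808541), which is known to associate with centrosomes and microtubules, had 1373 and 1539 reads and a log2 fold of 0.11 (-0.19 to 0.40). In the authors' deposited table all 3 had an adjusted p of 1. Their implied 95% intervals span folds from 0.747 to 1.32, which bounds the difference only roughly and does not show equality.

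MARK1 (chr1:220701568-220837803), the least abundant MARK gene, had 76 reads in vector cells and 43 in LKB1 cells. Its log2 fold was -0.87 with an implied 95% interval of -1.63 to -0.12, and the adjusted p was 0.241 in the authors' deposited table. It did not pass, and a fold of about 2.22 would have been needed at this depth. With a variation of 0.1 assumed its adjusted p was 0.0753. MARK1 gave 2.2% of MARK reads in the vector line (exact 95% interval 1.7 to 2.7) and 1.1% in the LKB1 line (0.8 to 1.5). MARK4 gave 39.0% and 40.9%. Such intervals of shares cover counting error only and not the spread between libraries, so they do not establish a shift in share. Summed per length over the 4 genes, the MARK family stood at 505 reads per kb in vector cells and 521 in LKB1 cells.

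Both NUAK genes were higher in the LKB1 line by nearly the same amount, and neither passed the test. NUAK1 (chr12:106457118-106533811, minus strand), which phosphorylates the myosin phosphatase subunit MYPT1, had 1045 reads in vector cells and 1391 in LKB1 cells. Its log2 fold was 0.36 (unadjusted p = 0.0167, adjusted p = 0.189 in the authors' deposited edgeR table), with an implied 95% interval of 0.065 to 0.65. NUAK2 (chr1:205271187-205290883, minus strand), known as a target gene of the coactivator YAP, had 212 and 283 reads. Its log2 fold was also 0.36, with an implied interval of -0.09 to 0.81 and an adjusted p of 0.668 in the authors' deposited edgeR table. The share of NUAK1 among NUAK reads was 83.1% in each line. Of 12485 protein-coding genes with at least 40 reads, 85.7% had a fold below that of NUAK1. A fold of 1.36 would have been needed for NUAK1 to pass, beside the 1.28 deposited.

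SNRK (chr3:43328004-43466256), the kinase with the fewest loop residues in common with the rest, had 459 reads in vector cells and 454 in LKB1 cells. The deposited log2 fold was -0.07 (adjusted p = 1) with an implied 95% interval of -0.58 to 0.44. This interval is rough, since its implied standard error (0.261) exceeds that of NUAK2 (0.23), which had fewer reads. The antisense gene SNRK-AS1 had 5 reads in each line, and Metazoa_SRP, a small RNA gene inside SNRK, had 1 in each. ANO10, which overlaps SNRK on the opposite strand, had 986 and 1053 reads, a log2 fold of 0.04. Whether counting used strand is not given in the sources used here, so reads of SNRK and ANO10 may not be fully separated.

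Levels of different genes were compared per length, as reads per kb of exon with the LKB1 line scaled for depth. With the length of all exons, MARK4 was highest in both lines, at 206 reads per kb in vector cells and 222 in LKB1 cells. In the vector line it was followed by MARK2 (169 reads per kb), NUAK1 (149), MARK3 (117), SNRK (65.8), NUAK2 (61.6), BRSK1 (42.2), MARK1 (14.03) and BRSK2 (0.869). SNRK and NUAK2 could not be ordered there beyond counting error (ratio 1.07, exact 95% interval 0.905 to 1.26). In the LKB1 line NUAK1, at 191 reads per kb, stood beside MARK2 at 179, and this pair could not be ordered either (ratio 1.07, interval 0.988 to 1.16). BRSK1 stood at 12.5 reads per kb there, and MARK1 at 7.64. BRSK1 lay at percentile 30.5 of protein-coding genes with at least 40 reads in the vector line and at percentile 11.4 in the LKB1 line.

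The choice of length moved the top of this order. With the longest transcript in place of all exons, MARK3 was first in the vector line at 290 reads per kb, ahead of MARK4 at 264. In both lines and with both lengths, BRSK1, MARK1 and BRSK2 held the 3 lowest places in that order. With the longest transcript, however, BRSK1 and NUAK2 above it could not be ordered in the vector line (ratio 1.17, exact 95% interval 0.95 to 1.45). The spread between libraries is not known, so these intervals are narrower than a comparison over libraries would give. Over all 9 genes the summed level was 825 reads per kb in vector cells and 868 in LKB1 cells, which follows the MARK and NUAK genes.

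**Figure D2:**
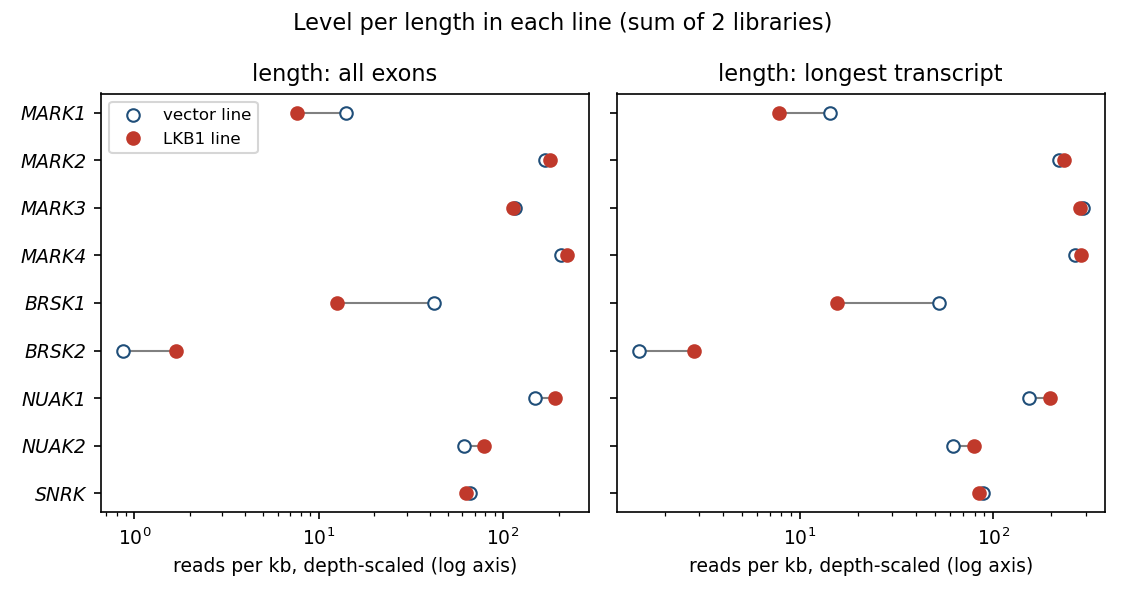
Reads per kb of each kinase gene (log x axis) in the vector line (open circles) and the LKB1 line (filled circles, scaled for depth), with the length of all exons at left and of the longest transcript at right; each point is a sum over 2 libraries, with no error bar. BRSK1 moves from 42.2 to 12.5 reads per kb at left, while MARK2, MARK3, MARK4 and SNRK nearly coincide between the lines.

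**Figure D3:**
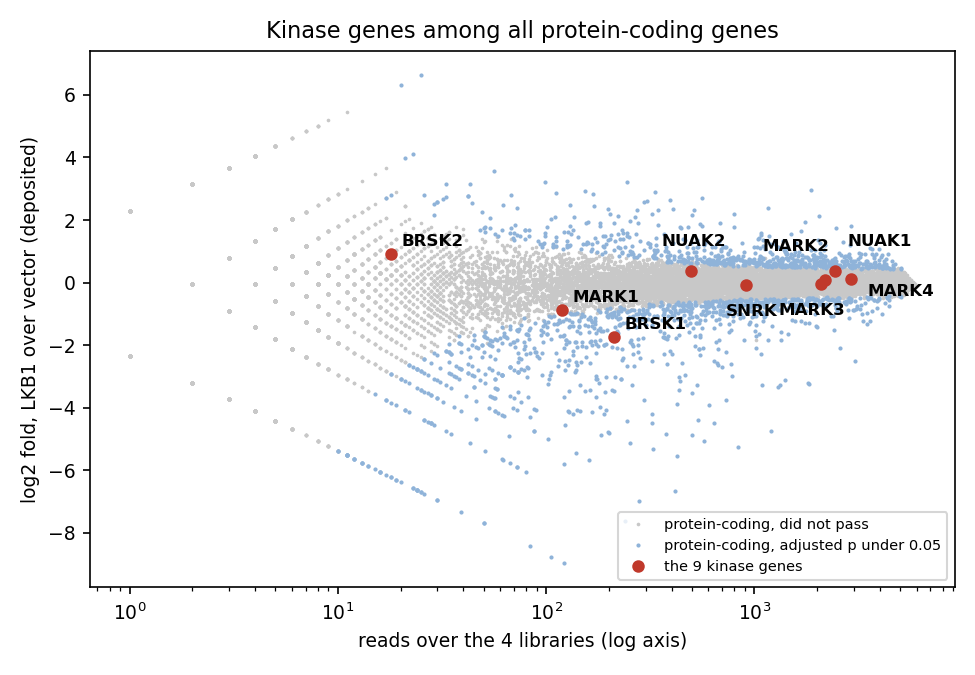
Deposited log2 fold (y axis) against reads over the 4 libraries (log x axis) for protein-coding genes with recovered totals; blue points passed the test, grey points did not, and the 9 kinase genes are red. BRSK1, with 212 reads, lies among the genes that passed, and BRSK2, with 18 reads, lies where folds spread widely.

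Overlap with other genes also limits the total of MARK4. The deposited span of MARK4 overlaps 13 other genes of the table, 5 of them protein-coding on the same strand, and none of the 13 passed the test. They include PPP1R37, with 554 reads in vector cells and 697 in LKB1 cells, and GEMIN7 with 186 and 145. How reads shared between such genes were counted is not given in the sources used here, so the total of MARK4 is uncertain. MARK1 and MARK3 each hold 1 pseudogene row, with 1 read and none. The 3 MARK2 pseudogenes of the table had 0 reads. MARK2, BRSK1, BRSK2, NUAK1 and NUAK2 overlapped no other gene of the table.

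Genes beside BRSK1 on the chromosome were mostly below 0 as well, though nearly all without passing the test. Of 20 protein-coding genes with at least 40 reads, the 10 on each side of it (hg19 chr19:55550476-56092211), 17 had a log2 fold below 0, and their median was -0.30. Over all protein-coding genes with at least 40 reads, 52.9% were below 0, at a median of -0.02. Of the 5 on each side, a window chosen after seeing the data, all 10 were below 0, with a median of -0.44. However, TMEM86B lay at -0.001 and PPP6R1 at -0.002. AC020922.1 (-0.84) and SUV420H2 (-0.91) start at 55851254 and 55851221, so these neighbours may share reads and are not clearly separate. Among the 20, 1 passed the test. That gene was IL11, the interleukin-6 family cytokine, whose centre lies 70.1 kb from that of BRSK1 and whose log2 fold was -3.24. BRSK1 itself differed from the median of the 20 by -1.44 on the log2 scale. No test was made of this neighbourhood.

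Neighbours of the other kinase genes had medians between -0.15 (MARK3) and 0.09 (MARK2). Over all 9 genes, 17 of 180 neighbours passed the test, 9.44% beside the 13.2% of all protein-coding genes with at least 40 reads. Around BRSK2 7 of 20 neighbours passed, 4 higher and 3 lower, with the mucin gene MUC5B at -8.96 the lowest. The higher ones include RP11-295K3.1 (log2 1.19) and CTSD (1.187), which start at 1768897 and 1773982. They may share reads, so these counts may hold 1 signal more than once. Around SNRK none of 20 passed. MARK1 differed from the median of its neighbours by -0.875 on the log2 scale and NUAK1 by 0.38.

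**Figure D4:**
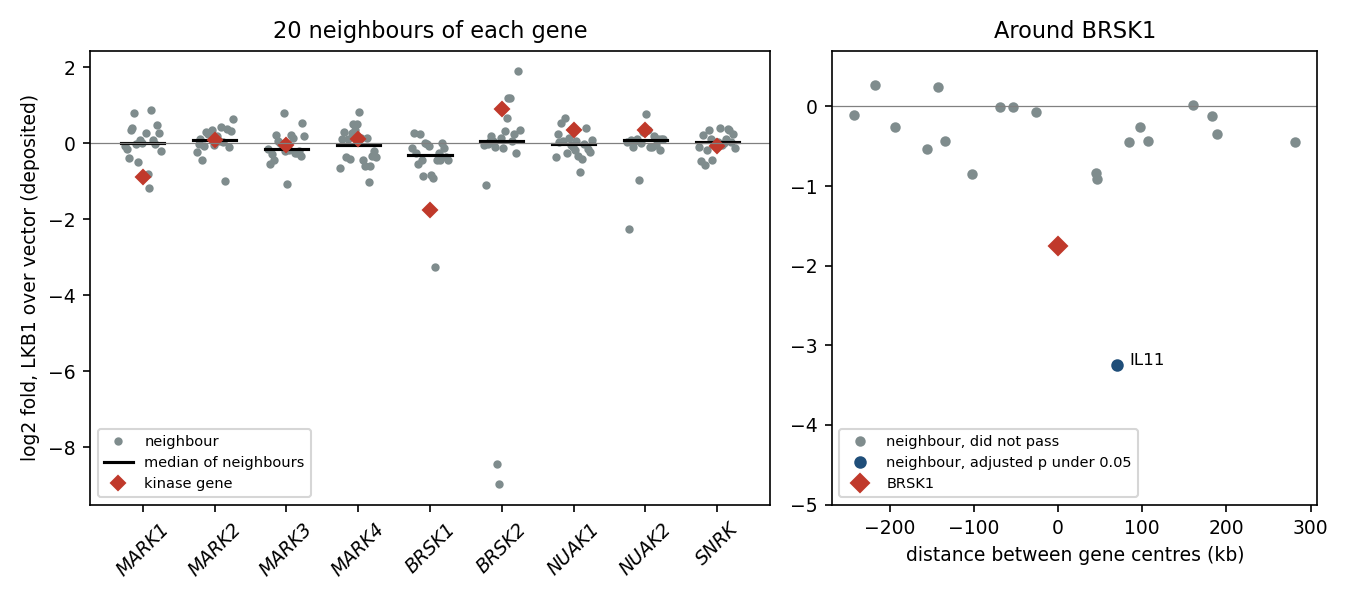
Left: deposited log2 fold (y axis) of each kinase gene (diamond) and of the 20 protein-coding genes with at least 40 reads beside it, 10 on each side (points, spread sideways in chromosome order, with the median as a bar). Right: the same values around BRSK1 against the distance between gene centres in kb; IL11 (blue), at 70.1 kb and -3.24, is the 1 neighbour that passed the test, and 17 of the 20 points lie below 0.

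The promoter of BRSK1, shown because it is the 1 kinase gene that changed, was read from RefSeq (GRCh38.p14, chr19:55283747-55283996, plus strand). Below are the first 250 bases of a 300-base promoter window, with their 6 CpG dinucleotides in capitals.
BRSK1: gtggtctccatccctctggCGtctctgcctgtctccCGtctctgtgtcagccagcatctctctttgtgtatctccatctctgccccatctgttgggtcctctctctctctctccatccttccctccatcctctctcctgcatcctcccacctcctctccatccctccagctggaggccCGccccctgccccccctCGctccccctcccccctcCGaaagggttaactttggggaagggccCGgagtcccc
The stretch is rich in runs of C and T. Where it lies relative to the hg19 start of BRSK1 given above was not checked. Over the full window of 300 bases, BRSK1 had 11 CpG and a GC content of 63.7%, beside medians of 14 CpG and 58.7% over 35116 promoters. Promoters of 8 of the 9 kinase genes were matched by symbol, 12 windows in all. On either strand, the cAMP response element TGACGTCA was found in the window of SNRK, and in 1.8% of all promoters. The TEAD motif GGAATG was found at 2 places in the window of NUAK2, and in 14% of all promoters. The shorter TGACG, which overlaps TGACGTCA, is in 24.6% of all promoters. It was found at 3 places in the window of SNRK, at 5 in 1 of the 4 windows of BRSK2, and at 1 each in those of MARK3 and MARK4. The E-box CACGTG, in 7.3% of all promoters, was found in another window of BRSK2. None of these 4 motifs is in the window of BRSK1. Such matches describe letters and were not tested against binding.

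Genes that act with these kinases were drawn up in 8 lists of 90 genes, of which 86 had at least 40 reads. Of these 9 were called higher and 5 lower, 16.3% beside the background of 13.2%. Of the 9, 1 is STK11, which was transfected and whose fold set the direction read here, so it is left out of the counts that follow. Without it 8 of 85 genes rose and 5 fell, 15.3%, and their median log2 fold was 0.06. In the LKB1 complex 1 of the other 4 genes rose, STRADB by 1.05 on the log2 scale (119 to 257 reads, adjusted p = 0.00065 in the authors' deposited edgeR table). The scaffold gene CAB39 was at 0.12 and did not pass. The median of the 4 was 0.24. Among the AMPK catalytic subunits, the SIK kinases and MELK, 1 of 6 rose, SIK1 with a log2 fold of 0.605 in the authors' deposited table, and the list median was 0.15.

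Of 13 other regulators 1 rose and 1 fell, at a median of 0.00. USP9X, a deubiquitinase that binds NUAK1 and MARK4, rose 2.61-fold (log2 1.38, adjusted p = 6.02e-19 in the authors' deposited edgeR table). It lies on the X chromosome, and the part of the group that did not match MDA-MB-231 in this call was not tested. PRKACA, a catalytic subunit of protein kinase A, fell from 1631 to 1121 reads (log2 -0.60). None of the 7 genes of 14-3-3 proteins, which bind MARK kinases and their phosphorylated substrates, passed; their median was 0.16 and their largest fold was that of YWHAQ at 0.35.

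On the substrate side, 1 of 10 microtubule-associated genes with at least 40 reads fell, MAP1S with a log2 fold of -0.61 (1448 to 988 reads), and the list median was -0.16. DCLK1, a doublecortin-like kinase, had 43 and 15 reads and did not pass (adjusted p = 0.0563 in the authors' deposited edgeR table). The tau gene MAPT, MAP1A and DCX had fewer than 40 reads. Of 14 cell polarity genes 3 rose and 1 fell, at a median of 0.05. The 3 that rose encode scaffold proteins of polarity complexes at cell junctions: PARD6B at 0.83 (723 to 1336 reads), INADL at 0.86 and PARD3B at 0.77. SCRIB, named after its value was seen, fell by 0.54. All 4 calls were lost with a variation of 0.2 assumed (adjusted p = 0.149 to 0.782). In simulated data with that variation, the test called 4% of genes changed 1.5-fold and 24% of those changed 2-fold. These shares may be too low for these data, since the simulation had a stricter adjusted cut-off. Most changed genes of these sizes were missed there, so a lost call at such folds does not show that a gene is unchanged.

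In the list of myosin phosphatase and light chain genes, the arm on which the NUAK kinases act, 1 of 15 rose. It was MYLK, the myosin light chain kinase, at a log2 fold of 1.14 (adjusted p = 6e-13 in the authors' deposited edgeR table), and the list median was 0.19. Of 16 other substrates and partners 1 rose and 2 fell, at a median of -0.16. RIMS1, a presynaptic active zone protein that BRSK1 phosphorylates, fell 4.74-fold, from 92 to 20 reads (adjusted p = 4.24e-08 in the authors' deposited edgeR table). The desmosomal PKP2, a substrate of MARK3, fell by 0.62 and the endosomal adaptor RAB11FIP2, a substrate of MARK2, rose by 0.66. With a variation of 0.2 assumed, 3 of these 13 calls remained, those of USP9X, MYLK and RIMS1. That is 3 of the 85 list genes, to be set beside 4.88% of protein-coding genes with at least 40 reads.

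**Figure D5:**
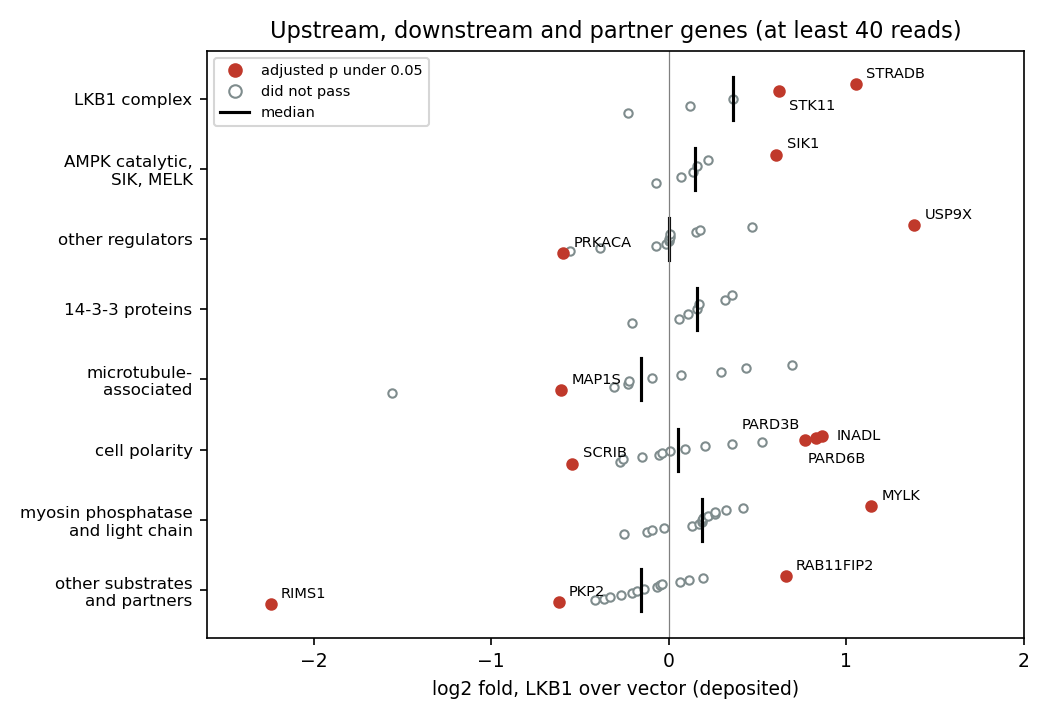
Deposited log2 fold (x axis) of each gene with at least 40 reads in the 8 lists (rows); filled red points passed the test and are named, open points did not, and black bars are list medians. RIMS1 at -2.24 and USP9X at 1.38 are the outermost called genes, and the medians lie between -0.16 and 0.36, with STK11 included in its list.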

How the data were processed

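The members and gene lists were chosen with earlier results of these data known. Per the submitters' processing notes, CASAVA 1.8.2, TopHat2 2.0.6, edgeR 2.6.0 and hg19 were used, with no role given; which tool counted, whether by strand, and with which annotation is not given in the sources used here. For each gene the authors deposited, per the file headers, a fold (ratio) with its log2 and a p-value with its FDR, and no value per library. The adjusted p-values equal Benjamini-Hochberg values over all 34675 genes within 1.9e-06, and a gene was called under 0.05. From the deposited fold, whole read totals per line up to 3000 were recovered using prior counts of 0.254868 (LKB1) and 0.245132 (vector), for 96.68% of 28242 genes with reads; where several totals fitted, the smallest was kept (73 genes), and each kinase gene had 1 solution. The recovery, and the test with an assumed variation of 0.2 described below, were run on simulated data.

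An alternative test assumed a coefficient of variation of 0.1, 0.2 or 0.4 between libraries (exact conditional negative binomial, two-sided, adjusted over all genes; genes above the limit were set to it). Standard errors implied by the deposited p are the size of the log2 fold divided by the normal quantile of that p. They are rough where p is large, as for MARK3 and SNRK, or where reads are few. The folds said to be needed to pass rest on these standard errors. Lengths came from GENCODE 29 by Ensembl identifier. Named were all 9 kinase genes, STK11, overlapping genes, and from each list up to 3 called genes with the smallest adjusted p and at least 40 reads; other named genes were chosen after their values were seen. Python 3.11.15, scipy 1.17.1 and pandas 2.3.3 were used. Intervals of totals and of shares cover counting error only.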

Additional observations from a re-analysis of the deposited data

How the results depend on the processing

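The count of 1 called kinase gene was the same when p-values were adjusted over genes with at least 40 reads or over protein-coding genes, at an adjusted p under 0.01, with a fold of at least 1.5 required, and with an assumed variation of 0.1 or 0.2. At an assumed variation of 0.4 it was 0, and BRSK1, still at -1.75, no longer passed. Over all genes the calls numbered 2007 as deposited, 2400 at 0.1, 868 at 0.2 and 266 at 0.4. The 14 called list genes, STK11 included, became 3 at an assumed variation of 0.2. No kinase gene changed direction without the prior counts or after centring on the median of genes with at least 200 reads (-0.005). With 5 neighbours on each side, an alternative chosen after seeing the data, 11.1% of neighbours passed. Leaving out a library was not run, as no value per library was given. No paired analysis was possible because the deposited table holds 1 comparison and no value per library. Depth limits BRSK2 and MARK1 most.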
